A study of Citrus sinensis with 30 samples.

Results

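Transcript levels of 3 regulatory genes were followed in stored orange fruit: the MYB gene Cs9g03070, named PH4, the basic helix-loop-helix (bHLH) gene Cs5g31400, annotated as bHLH protein A and known in citrus as AN1 or Noemi, and Cs1g02580, a further bHLH gene. They were taken by identifier, 3 of the 24179 rows of the expression table, and all 3 were among the 16578 genes tested, those whose FPKM reached 1 in 3 or more libraries. FPKM is the level of a gene scaled to its transcript length and to the mapped fragments of the library. The study set 'Tarocco' blood orange (TBO), whose flesh is coloured by anthocyanin, against 'Bingtangcheng' sweet orange (BTSO), both Citrus sinensis, and sampled the juice sacs. Mature fruit were bagged and kept in cold storage without any other treatment, and poly(A) RNA was sequenced after 0, 15, 30, 60 or 90 days of storage (the day is written DAS), with 3 libraries for each variety and day, 30 libraries in 10 groups. Several fruit supplied the juice sacs of each group, and each variety stood for a single genotype bought from a single station, so variety cannot be told apart from the trees and orchards that the fruit came from.

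Anthocyanin synthesis in plants is switched on by complexes of a MYB protein, a bHLH protein and a WD40 repeat protein, in which the MYB partner largely sets which target genes are bound. In petunia, PH4 and the bHLH protein AN1 act together on genes for the proton pumps that acidify the vacuole, and AN1 with a different MYB partner drives anthocyanin genes. In citrus, loss of Noemi, the counterpart of AN1, is known from fruit of very low acidity that also lack anthocyanin in leaves and flowers.

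The table described Cs9g03070 as transcription factor MYB34, with ontology terms for trichome and seed coat development, and joined 1 reference and 1 assembled transcript in its row. The row of Cs5g31400 joined 8 transcripts, 3 of them reference transcripts, and carried terms for regulation of flavonoid and proanthocyanidin synthesis. Cs1g02580 was described as a hypothetical protein, with 3 transcripts and terms for protein dimerization, pollen development and tapetum development. No term of that row named anthocyanin, so it is called the bHLH gene Cs1g02580 here. The study amplified Cs9g03070 by qRT-PCR with a primer pair of 20 bases each, listed there under the gene name MYB. The transcripts of the row were not aligned here to these primers. They are printed from 5′ to 3′, with no bases in capitals:
PH4 forward primer: cgagcttctggccaactaca
PH4 reverse primer: gagaaggcgatgtaggcgaa

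Totals of the estimated counts ranged from 51894138 to 75833189 per library, and libraries of a group correlated at 0.969 to 0.985 (Pearson r across genes). PH4 had been picked by the study as a hub of a network of genes that differed between these same varieties at every day, and AN1 was also described there as higher in TBO, so the direction of their variety difference is not independent evidence. A list of 10 photosynthesis genes, which would mark green peel or vascular tissue, was detected in both varieties, with a summed level of 63.5 to 91.6 FPKM in TBO and 32.6 to 70.3 FPKM in BTSO. Within each day every TBO library was above every BTSO library on that sum, to which a single gene, Cs4g07650, gave a mean of 42.9 FPKM in TBO and 16.1 FPKM in BTSO, and at most 2 of the 10 genes were called higher in TBO at any day. A seed list of 5 genes was low in both (12.2 to 23.2 FPKM in TBO and 17.4 to 27.8 FPKM in BTSO), with 2 of the 5 genes close to 0. Most of that sum came from a single gene, orange1.1t03751, with a mean of 15.0 FPKM in TBO and 20.2 FPKM in BTSO. The part of tissue makeup in the results below was not tested.

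PH4 was the regulator with the widest gap between the varieties in ratios of mean FPKM, at each of the 5 days. At 0 DAS its level was 16.1, 19.8 and 13.7 FPKM in the TBO libraries and 1.297, 0.531 and 0.628 FPKM in those of BTSO. At 15 DAS the values were 27.1, 23.4 and 26.8 FPKM in TBO against 1.83, 1.80 and 1.01 FPKM in BTSO, and at 30 DAS they were 28.2, 21.3 and 21.0 FPKM against 1.02, 3.03 and 2.48 FPKM. At 60 DAS TBO gave 25.2, 23.3 and 24.6 FPKM and BTSO 1.202, 1.65 and 2.16 FPKM, and at 90 DAS TBO gave 18.6, 15.0 and 17.3 FPKM and BTSO 2.25, 2.18 and 0.822 FPKM. The groups were thus far apart at each day, and the lowest of the 15 TBO libraries (13.7 FPKM) stood above the highest of the 15 BTSO libraries (3.03 FPKM). The ratio of mean FPKM between TBO and BTSO was 20.1, 16.7, 10.8, 14.6 and 9.71 in the order of the days. In bulk tissue a change in RNA per cell and a change in the share of cells that hold the transcript cannot be told apart.

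AN1 was the most abundant of the 3 in both varieties. At 0 DAS TBO held 95.4, 90.1 and 89.8 FPKM and BTSO 20.6, 14.4 and 15.8 FPKM. The TBO libraries reached 118, 118 and 132 FPKM at 15 DAS, 156, 135 and 132 FPKM at 30 DAS and 166, 148 and 163 FPKM at 60 DAS, and stood at 119, 107 and 125 FPKM at 90 DAS. In BTSO the values were 16.8, 16.4 and 23.1 FPKM at 15 DAS, 11.96, 18.9 and 19.0 FPKM at 30 DAS, 18.6, 22.1 and 22.2 FPKM at 60 DAS and 12.4, 21.3 and 12.9 FPKM at 90 DAS. BTSO libraries stayed between 11.96 and 23.1 FPKM throughout, a band within which the days overlapped. Ratios of mean FPKM between the varieties were 5.42, 6.53, 8.50, 7.59 and 7.53 from 0 to 90 DAS. Of the genes tested, 2.79% had a higher mean FPKM than AN1 in TBO and 25.6% in BTSO, while for PH4 these shares were 23.5% and 83.2%.

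The bHLH gene Cs1g02580 had the smallest gap between the varieties, and it narrowed at the end of storage. Its level was 14.2, 11.9 and 15.2 FPKM in TBO at 0 DAS, 18.1, 17.9 and 23.6 FPKM at 15 DAS, 21.1, 17.5 and 17.99 FPKM at 30 DAS, 20.8, 23.4 and 26.2 FPKM at 60 DAS and 16.1, 16.4 and 17.6 FPKM at 90 DAS. In BTSO it was 3.57, 4.10 and 5.001 FPKM at 0 DAS, 4.42, 3.99 and 3.56 FPKM at 15 DAS, 3.36, 1.53 and 3.46 FPKM at 30 DAS, 3.92, 2.49 and 4.37 FPKM at 60 DAS and 9.61, 7.86 and 6.79 FPKM at 90 DAS. All BTSO libraries at 90 DAS were above all other BTSO libraries, and all of them remained below the lowest TBO library (11.9 FPKM). The ratio of mean FPKM between TBO and BTSO was 3.26 at the start, 4.99, 6.78 and 6.53 at 15, 30 and 60 DAS and 2.07 at the end. For all 3 genes the lowest TBO library lay above the highest BTSO library, as it did for 3.66% of the genes tested.

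**Figure D1:**
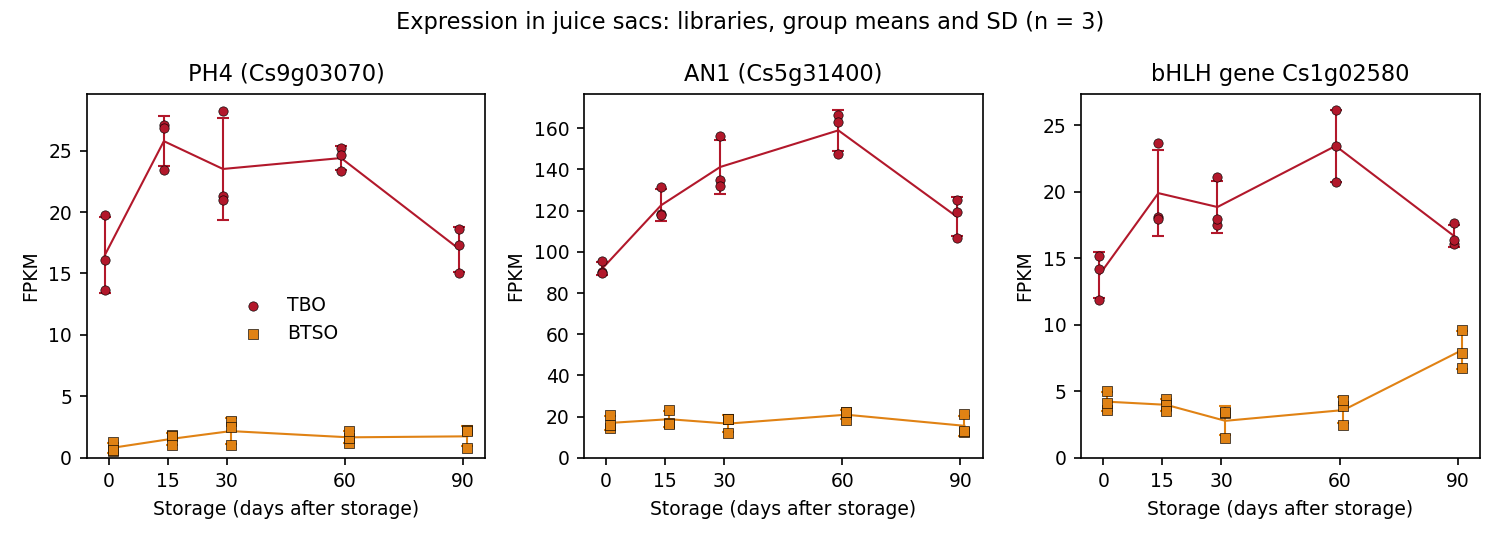
FPKM (vertical axes, from 0, a different range in each panel) of PH4, AN1 and the bHLH gene Cs1g02580 against days after storage in TBO (circles) and BTSO (squares). Points are libraries, lines join the group means and bars are SD (n = 3). No TBO point falls within the BTSO range in any panel, and Cs1g02580 in BTSO goes from 3.59 FPKM at 60 DAS to 8.09 FPKM at 90 DAS.

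The variety difference was tested for every gene with limma on log2(FPKM + 1), a scale that understates the change of genes with low FPKM such as PH4 in BTSO. A gene was called where the p-value adjusted by Benjamini-Hochberg over all genes tested was under 0.05 and the log2 difference was over 1. PH4 was called higher in TBO at all 5 days, by 3.27, 3.41, 2.99, 3.27 and 2.75 from 0 to 90 DAS (SE 0.23 each). At 0 DAS its limma p-value adjusted by Benjamini-Hochberg was 1.79e-10, and 15 of the genes tested had a larger difference. AN1 was called higher in TBO at all 5 days as well, by 2.38, 2.66, 3.04, 2.87 and 2.87 in the same order (SE 0.17). Cs1g02580 was called higher at 0, 15, 30 and 60 DAS, by 1.50, 2.06, 2.43 and 2.43 (SE 0.18). At 90 DAS its difference was 0.97 (95% interval 0.59 to 1.35), which had an adjusted p of 0.000111 by limma but fell short of the log2 limit of 1. By the adjusted p alone 32.3% of the genes tested were higher at that day.

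These calls stood against a large number of others. The share of tested genes called higher in TBO was 3.85%, 5.16%, 5.5%, 6.65% and 5.91% in the order of the days, and 1.35% (224 genes) were called higher at all 5 days, PH4 and AN1 among them. The 95% intervals of PH4 and AN1 did not overlap at 0 DAS (2.80 to 3.75 and 2.03 to 2.74) and overlapped at the later days. The median difference over all genes tested lay between 0.03 and 0.13. At 90 DAS Cs1g02580 lay close to the limit, and its difference was 1.05, and called, with a pseudocount of 0.1 and 1.09, and called, without replicate 1 of BTSO at 90 DAS (9.61 FPKM). It stayed uncalled in 6 of 7 alternatives (lowest 0.835) and in 29 of the 30 fits that left out a library.

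**Figure D2:**
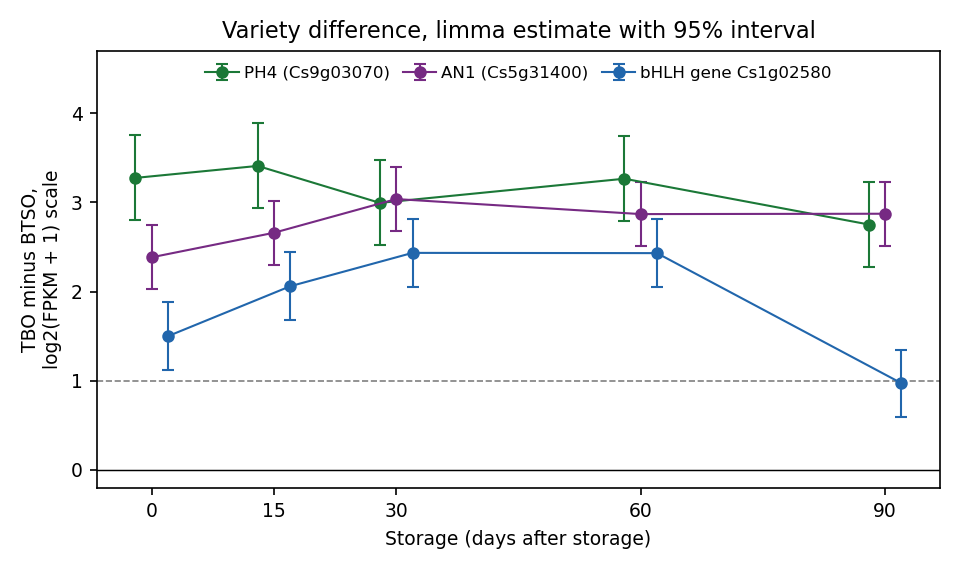
Difference between TBO and BTSO on the log2(FPKM + 1) scale (vertical axis) against days after storage, as the limma estimate with its 95% interval for PH4, AN1 and the bHLH gene Cs1g02580, drawn slightly apart at each day. The dashed line is the limit of 1 used for calls, under which only Cs1g02580 at 90 DAS falls, at 0.97.

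Within a variety, none of the 3 genes was called at any day against 0 DAS on the log2(FPKM + 1) scale, while of all genes tested 1.37%, 4.6%, 7.53% and 11% were called in either direction in TBO at 15, 30, 60 and 90 DAS and 1.43%, 6.29%, 5.79% and 7.29% in BTSO. AN1 in TBO passed the adjusted p alone at 30 DAS (log2 difference 0.61, adjusted p 0.00781 by limma) and at 60 DAS (0.78, adjusted p 0.000826 by limma), where 18.9% and 26% of the genes tested were higher on that criterion. Cs1g02580 in TBO passed it at 60 DAS (0.73, adjusted p 0.00253 by limma). At 90 DAS AN1 was 0.35 and Cs1g02580 0.27 above 0 DAS in TBO, with limma adjusted p-values of 0.0935 and 0.221. From 60 to 90 DAS the TBO differences were -0.44 for AN1, -0.46 for Cs1g02580 and -0.50 for PH4, with limma adjusted p-values of 0.0631, 0.0638 and 0.110. Over that interval 2.85% of the genes tested were called in TBO and 2.88% in BTSO, in either direction.

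For PH4 in TBO the means went from 16.49 FPKM ± 3.07 (SD, n = 3) at 0 DAS to 25.8 FPKM ± 2.05 at 15 DAS and 16.98 FPKM ± 1.84 at 90 DAS. Its log2 differences from 0 DAS were 0.63, 0.49, 0.55 and 0.05 at the 4 later days, with limma adjusted p-values of 0.0792, 0.104, 0.0579 and 0.872, so that no day passed. In order of mean level the 15, 60 and 30 DAS groups overlapped one another and lay above the 90 and 0 DAS groups, which overlapped. In BTSO PH4 was 0.77 above 0 DAS at 30 DAS and 0.57 above it at 90 DAS, with limma adjusted p-values of 0.00998 and 0.0435. On the adjusted p alone 20.9% and 32.2% of the genes tested were higher at these days. Neither held in every fit that left out a library: without replicate 2 of BTSO at 30 DAS (3.03 FPKM) the first was 0.57 with an adjusted p of 0.0733 by limma, and without replicate 2 of BTSO at 0 DAS it was 0.66 with 0.0505. The second was 0.43 to 0.50 with limma adjusted p-values of 0.127 to 0.187 without replicate 1 or 2 of BTSO at 90 DAS or replicate 2 or 3 of BTSO at 0 DAS. In other fits the first difference was over the limit and called: it was 1.27 with a pseudocount of 0.1 (adjusted p 0.00550 by limma), 1.36 by edgeR (adjusted p 0.00394), 1.34 by DESeq2 (adjusted p 0.000311) and 1.07 without replicate 1 of BTSO at 30 DAS (1.02 FPKM, adjusted p 0.000638 by limma). At 15 and 60 DAS PH4 in BTSO was 0.49 and 0.56 above 0 DAS, with limma adjusted p-values of 0.172 and 0.0537. The 60 DAS difference passed the adjusted p with a pseudocount of 0.1 (0.0251 by limma), by edgeR (0.0473) and by DESeq2 (0.0219). That at 15 DAS passed it by DESeq2 (0.0335). The 90 DAS difference missed it in limma with no filter (0.0654) and with upper-quartile scaling (0.0508). These BTSO levels rest on 82 to 507 estimated counts a library.

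In BTSO, Cs1g02580 was 0.80 above 0 DAS at 90 DAS (adjusted p 0.000995 by limma) and 0.997 above 60 DAS (adjusted p 0.000388 by limma), so that neither reached the log2 limit of 1, and the 90 DAS libraries did not overlap with those of either earlier day. The difference from 60 DAS was called with a pseudocount of 0.1 (1.17), with upper-quartile scaling (1.003), by edgeR (1.14) and by DESeq2 (1.14), and in 4 of the 30 fits that left out a library (values of 0.81 to 1.12 over the 30). Of the genes tested 14.2% were higher at 90 than at 60 DAS on the adjusted p alone, and the libraries of 90 DAS lay above those of 0 DAS for 36.5% of genes and above those of 60 DAS for 18.4%. At 30 DAS it was lower than at 0 DAS by 0.50 (adjusted p 0.0311 by limma), a difference that was -0.23 with an adjusted p of 0.284 by limma without replicate 2 of BTSO at 30 DAS (1.53 FPKM). Without replicate 2 or 3 of BTSO at 0 DAS it was -0.52 and -0.40, with limma adjusted p-values of 0.0578 and 0.137. On the adjusted p 19.9% of the genes tested were lower at 30 DAS. AN1 differed from 0 DAS by -0.14 at 90 DAS in BTSO, with a 95% interval from -0.50 to 0.22 and an adjusted p of 0.525 by limma. The contrast between 60 and 90 DAS was chosen after the values had been seen.

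Whether storage changed the variety difference was tested as an interaction, with the adjusted p alone as the criterion. For Cs1g02580 the TBO minus BTSO difference grew by 0.93 from 0 to 30 DAS (95% interval 0.40 to 1.47, adjusted p 0.0244 by limma) and by 0.93 from 0 to 60 DAS (adjusted p 0.0162 by limma), where 4.82% and 7.56% of the genes tested grew in the same way. From 60 to 90 DAS it changed by -1.46 (95% interval -1.99 to -0.92, adjusted p 0.00430 by limma), and 98 of the genes tested had a more negative change while 1.22% passed in that direction. Over the whole course, from 0 to 90 DAS, its change was -0.53 and did not pass (95% interval -1.06 to 0.0067, adjusted p 0.197 by limma). The growth to 30 DAS lost its call in the fits without replicate 2 of TBO at 0 DAS, replicate 1 of TBO at 30 DAS, replicate 3 of BTSO at 0 DAS or replicate 2 of BTSO at 30 DAS, with estimates of 0.67 to 0.85. For AN1 and PH4 no change of the difference passed: from 0 to 90 DAS AN1 gave 0.49 (95% interval -0.02 to 0.99) and PH4 gave -0.52 (95% interval -1.20 to 0.15), with limma adjusted p-values of 0.209 and 0.329, while 12.4% of the genes tested changed in either direction. Without replicate 2 of BTSO at 90 DAS (21.3 FPKM) the change of AN1 was 0.72 and passed, with an adjusted p of 0.0382 by limma.

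The balance between the regulators was taken as the ratio of their FPKM within a library, since FPKM is already per transcript length. In TBO the PH4 to AN1 ratio was 0.180 ± 0.0351 (SD, n = 3), 0.210 ± 0.0163, 0.166 ± 0.0130, 0.154 ± 0.00378 and 0.145 ± 0.00967 from 0 to 90 DAS. In BTSO it was 0.0465 ± 0.0144, 0.0875 ± 0.0381, 0.125 ± 0.0378, 0.0789 ± 0.0167 and 0.116 ± 0.0600 over the same days. At 0 DAS AN1 thus stood at 5.69 times the level of PH4 in TBO and at 22.7 times in BTSO (means over libraries). The varieties did not overlap in this ratio at 0, 15 and 60 DAS, with log2 differences of 1.98, 1.38 and 0.98, and overlapped at 30 and 90 DAS (0.45 at each). Between 0 and 90 DAS the mean log2 ratio differed by 1.23 in BTSO and by -0.30 in TBO. The TBO ranges overlapped. Those of BTSO only just cleared each other, with a highest ratio of 0.0631 at 0 DAS and a lowest of 0.0635 at 90 DAS.

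For PH4 against Cs1g02580 the ratio was close to 1 in TBO, with means of 1.23, 1.31, 1.24, 1.05 and 1.02 from 0 to 90 DAS. In BTSO the corresponding means were 0.206, 0.383, 1.00, 0.487 and 0.211, lower than in TBO without overlap at every day other than 30 DAS. At 30 DAS the BTSO libraries scattered from 0.303 to 1.98, the highest of them being replicate 2, in which PH4 was at its BTSO maximum and Cs1g02580 at its minimum.

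The AN1 to Cs1g02580 ratio was the steadiest in TBO, at 6.74, 6.22, 7.49, 6.84 and 7.01 over the 5 days, a highest mean of 1.204 times the lowest. In BTSO it was 4.15, 4.80, 7.14, 6.22 and 1.97, a span of 3.62 times. The highest of these means, at 30 DAS, came from libraries that ran from 3.56 to 12.4, with replicate 2 the highest. The 90 DAS value came from 1.29, 2.71 and 1.91 in the libraries and did not overlap with that of TBO (6.51 to 7.44) or with that of BTSO at 0 DAS (3.17 to 5.75). For PH4 to AN1 and PH4 to Cs1g02580 the spans over the days were 1.45 and 1.29 times in TBO and 2.70 and 4.86 times in BTSO. Of the 21 ratio comparisons made, 11 had ranges that did not overlap, each with a two-sided exact permutation p of 0.1, the smallest that 3 libraries against 3 allow, and an adjusted p of 0.191 (Benjamini-Hochberg) in the same exact permutation tests. No ratio comparison could therefore pass 0.05, and the difference in course between the varieties was not tested.

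**Figure D3:**
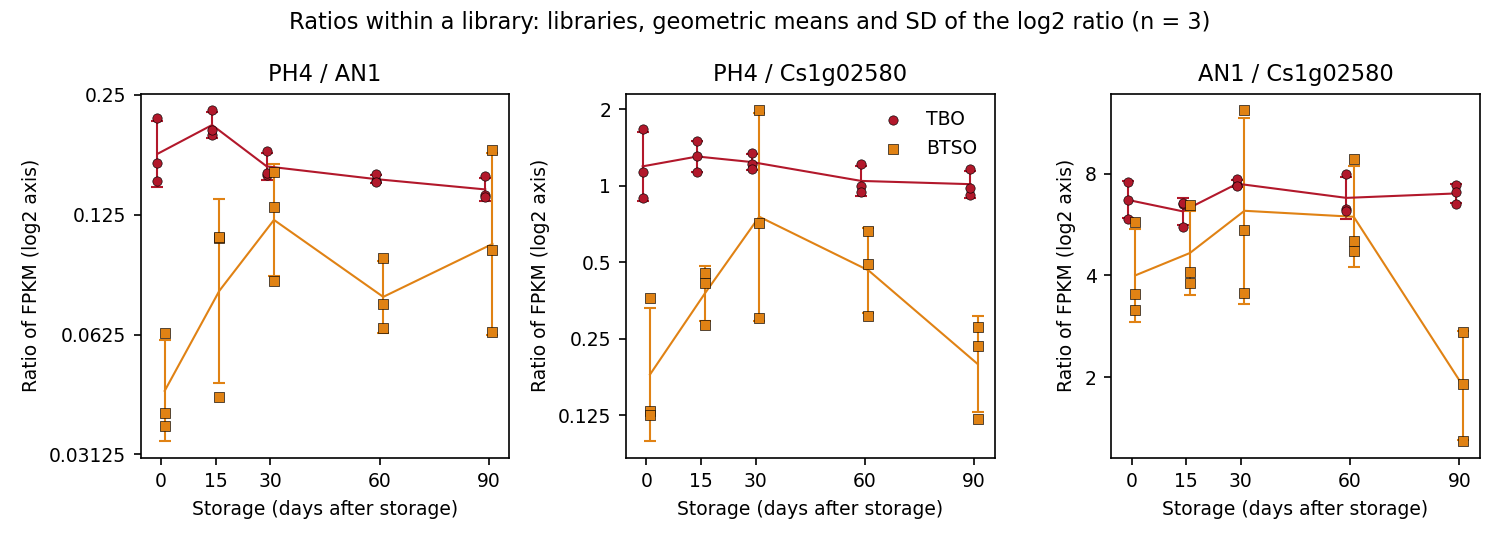
Ratios of FPKM between pairs of the 3 regulators within each library (vertical axes, log2 scaled) against days after storage in TBO (circles) and BTSO (squares). Points are libraries, lines join geometric means and bars are the SD of the log2 ratio (n = 3). The AN1 to Cs1g02580 ratio of TBO stays between 5.57 and 8.002 in all 15 libraries, whereas BTSO lies between 1.29 and 2.71 at 90 DAS.

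Covariation was examined within each variety over its 15 libraries, never across both, because the varieties form separate clusters. In TBO the correlation on the log2(FPKM + 1) scale was strongest between AN1 and Cs1g02580, with Pearson r = 0.87 and Spearman rho = 0.80 (adjusted permutation p 0.000300 and 0.00300 over 6 correlations). PH4 and AN1 gave r = 0.73 and rho = 0.65 (adjusted permutation p 0.00720 and 0.0199), and PH4 and Cs1g02580 gave r = 0.66 and rho = 0.79 (adjusted permutation p 0.0144 and 0.00300). Without the 2 libraries farthest from the median on the x axis these r were 0.82, 0.62 and 0.68. The relations rested in part on the storage day that libraries share: as deviations from the mean of the day, permuted within days, r was 0.51 for AN1 and Cs1g02580, 0.61 for PH4 and AN1 and -0.02 for PH4 and Cs1g02580, with adjusted permutation p-values of 0.210, 0.210 and 0.957.

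In BTSO no pair passed. PH4 and AN1 gave r = 0.34 and rho = 0.29 (adjusted permutation p 0.250 and 0.361), PH4 and Cs1g02580 gave r = -0.13 and rho = -0.10 (adjusted permutation p 0.644 and 0.734), and AN1 and Cs1g02580 gave r = -0.38 and rho = -0.31 (adjusted permutation p 0.238 and 0.361). Without the 2 farthest libraries they were 0.24, -0.12 and -0.32, and as deviations from the day means 0.52, -0.11 and -0.38. The difference between the varieties in these correlations was not tested.

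**Figure D4:**
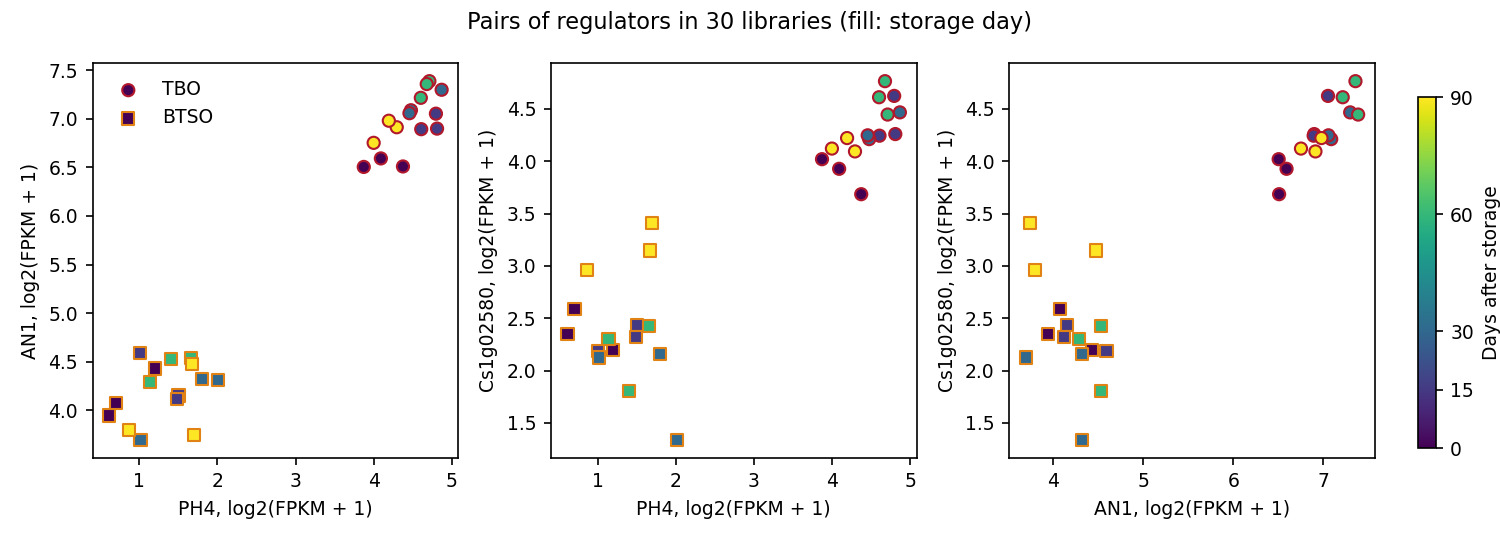
Levels of each pair of regulators in all 30 libraries on the log2(FPKM + 1) scale (both axes), with TBO as circles, BTSO as squares and the storage day as fill. The varieties form separate groups in every panel, and within TBO the 0 DAS libraries lie at the low end of AN1, whose correlation with Cs1g02580 over the 15 TBO libraries is 0.87.

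A list of other genes with annotations linked to the MYB, bHLH and WD40 machinery held 10 genes: 4 MYB genes, 1 WD repeat gene and 5 genes annotated with the name GLABRA, which also covers homeobox genes outside these classes. Of the 10, 6 passed the filter on low values (1 MYB gene, the WD repeat gene and 4 GLABRA genes). At each of the 5 days 3 of these 6 (Cs6g17570, Cs1g15200 and Cs1g10860) were called higher in TBO and none lower, with a median difference of 0.69 at 0 DAS against 0.06 over all genes tested. Cs6g17570, a MYB114-like gene of the class that activates anthocyanin genes, was at 3.71 FPKM ± 0.806 (SD, n = 3) in TBO and 0.0149 FPKM ± 0.0258 in BTSO at 0 DAS, and at 16.6 FPKM ± 1.97 and 0.0213 FPKM ± 0.0369 at 90 DAS. Its variety difference was 2.20 at 0 DAS and 4.10 at 90 DAS, called at every day, and grew by 1.90 between them (adjusted p 0.0106 by limma), as 7.04% of the genes tested did. Cs1g15200, annotated as a GLABRA 2 type homeobox gene, was higher in TBO by 1.79 at 0 DAS and 1.77 at 90 DAS. Cs2g14970, a WD repeat gene of the LWD1 type, was called at no day and differed by 0.03 at 0 DAS and -0.24 at 90 DAS.

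A list of enzymes of anthocyanin and proanthocyanidin synthesis, found by keywords in the annotation, held 17 genes, of which 12 passed the filter. It covered chalcone synthase, anthocyanidin synthase, leucoanthocyanidin reductase, anthocyanidin reductase and anthocyanidin 3-O-glucosyltransferase. Chalcone isomerase and the flavanone and flavonoid hydroxylases were outside it. Dihydroflavonol reductase was also sought by keyword, and no gene of the list came from that search. Between 3 of 12 (at 0 DAS) and 7 of 12 (at 90 DAS) were called higher in TBO. In the other direction 2 of 12 were called lower at 0 DAS and 1 of 12 at each later day. The gene lower at 0 DAS only was the chalcone synthase Cs3g19360, at 6.85 FPKM in TBO and 18.1 FPKM in BTSO. Over all genes tested, 3.94%, 3.72%, 5.25%, 4.69% and 4.89% were called lower in TBO from 0 to 90 DAS, beside the 3.85% to 6.65% called higher. The 7 called higher at 90 DAS included 3 chalcone synthase genes of low level, Cs3g20640, Cs3g20680 and orange1.1t05430. In TBO they were at 0 FPKM up to 30 DAS and at 2.19, 3.48 and 3.09 FPKM at 90 DAS. Cs9g11190, a chalcone synthase, the enzyme of the first committed step, was at 378 FPKM ± 51.9 (SD, n = 3) in TBO and 1.42 FPKM ± 0.498 in BTSO at 0 DAS, a log2 difference of 7.31. Some chalcone synthase genes lie in families of like sequence, between which the counting may have split reads. Cs5g09970, anthocyanidin synthase, differed by 4.78 at 0 DAS and 6.30 at 60 DAS. In TBO it was 1.09 lower at 90 than at 60 DAS, and called (adjusted p 0.0108 by limma). The 3 regulators changed by -0.44 to -0.50 over that interval and were not called. Whether this enzyme gene and the regulators differed in that change was not tested. The most abundant anthocyanidin 3-O-glucosyltransferase, Cs6g11490, was called at no day (0.05 at 0 DAS), and orange1.1t04895, of the same family, was the gene called lower at all 5 days (-1.98 at 0 DAS).

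A list of 14 further genes held 12 structural genes and hub regulators, the chalcone isomerase-like gene Cs7g20780, known here from a primer list, and the cysteine proteinase gene Cs2g04770. Of the 14, 12 were called higher in TBO at 0 DAS, 13 at 15 and 60 DAS and 14 at 30 and 90 DAS, with none lower. The structural genes and hubs were chosen by the study on these samples, so their direction is not independent evidence. PH8 (Cs1g16150), a P-type ATPase and a vacuolar proton pump of the kind that PH4 and AN1 act on in petunia, was at 38.01 FPKM ± 12.1 (SD, n = 3) in TBO and 3.26 FPKM ± 0.724 in BTSO at 0 DAS, a log2 difference of 3.16, beside 3.27 for PH4 and 2.38 for AN1. At 90 DAS it differed by 2.82, beside 2.75 for PH4 and 2.87 for AN1.

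Genes with the most similar courses were ranked by the smaller of their Pearson r with a regulator within TBO and within BTSO (15 libraries each), which describes likeness over libraries that share their storage days. The closest to PH4 was Cs2g21750, a gene without a descriptive annotation (r = 0.82 in TBO and 0.78 in BTSO), with mean levels of 51.0 FPKM in TBO and 5.76 FPKM in BTSO. Next for PH4 came orange1.1t00634, a glucan endo-1,3-beta-glucosidase, Cs5g25200, Cs7g27180 and Cs2g03740, whose lower r ranged from 0.68 to 0.71. For AN1 the order began with Cs2g04770, annotated as a cysteine proteinase (0.68 in TBO and 0.75 in BTSO), and Cs4g17610, a Mediator subunit gene. Then came anthocyanidin synthase Cs5g09970 (0.88 and 0.63), the MYB114-like Cs6g17570 (0.62 and 0.71) and Cs6g16160. Cs6g17570 was nearly absent in BTSO (0 to 0.181 FPKM), so its r of 0.71 there rests on differences between very low values.

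Cs1g02580 was most like Cs9g01250, a late embryogenesis abundant protein gene (r = 0.88 in TBO and 0.84 in BTSO), followed by Cs1g18440, the nitrate transporter gene Cs5g06250, Cs5g04780 and Cs5g33940. The level of Cs9g01250 in BTSO was 24.2 FPKM ± 8.76 (SD, n = 3) at 60 DAS and 39.8 FPKM ± 11.9 at 90 DAS, and in TBO 130 FPKM ± 31.4 and 59.9 FPKM ± 10.96. These genes were picked as the highest on this score, so a lower score between the regulators carries no further meaning. Between PH4 and AN1 the smaller r was 0.34, with 1155 genes more like PH4 and 220 more like AN1, and for both pairs with Cs1g02580 it was negative (-0.13 with PH4 and -0.38 with AN1). In each pair the smaller r was that of BTSO, while in TBO AN1 and Cs1g02580 gave r = 0.87.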

How the data were processed

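RNA-seq of juice sacs gave 30 libraries, 3 for each variety and storage day, grouped by their titles. FPKM values were computed by the authors, who removed low-quality and ribosomal reads, aligned the rest to a sweet orange genome, assembled transcripts and merged the assemblies. The same table holds the estimated counts that the authors deposited as whole numbers, used only in alternatives. The submitters' processing notes name HISAT2 2.0, StringTie 1.3.0 and Bowtie 0.12.2 with no roles. They also name mm8, a mouse build, so the genome build and the strand setting are not given in the sources used here, and coordinates were not used.

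The filter kept genes that reached an FPKM of 1 in 3 or more libraries. These were fitted in R 4.3.3 with limma 3.58.1 on log2(FPKM + 1), over all 30 libraries with a mean for each group, moderated variances with a trend and Benjamini-Hochberg adjustment. Differences between varieties and between days were called at an adjusted p under 0.05 with a log2 difference over 1, and interactions at the adjusted p alone. The limit on the adjusted p and the use of limma on all libraries are choices made here. Ratios were compared by exact permutation tests, and correlations with 100000 permutations, with scipy 1.17.1, pandas 2.3.3 and numpy 2.4.6 under Python 3.11.15. Plots used matplotlib 3.10.9. Scripts were tested on simulated data. Nothing says that libraries came from separate trees, so p-values measure the spread between these samples.

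Alternatives were a pseudocount of 0.1, no filter, upper-quartile scaling, fits on 6 libraries, replicate blocks, each library left out, edgeR 4.0.16 and DESeq2 1.42.0. Named genes are the 3 regulators, the study's structural and hub genes, the most abundant gene of each annotated kind, any gene a count of 5 or fewer singles out, and the 5 genes most like each regulator. The regulators and lists were chosen with earlier results of these data known. Estimated counts are not read numbers, so no counting intervals were computed.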

Additional observations from a re-analysis of the deposited data

Results flagged for a closer look

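The variety difference of the bHLH gene Cs1g02580 changed between some of the storage days, by a test of the change itself. TBO minus BTSO was larger by 0.933 at 30 DAS and by 0.930 at 60 DAS than at 0 DAS on the log2(FPKM + 1) scale, and from 60 to 90 DAS it changed by -1.46. The limma p-values adjusted by Benjamini-Hochberg were 0.0244, 0.0162 and 0.00430. The contrast from 60 to 90 DAS was chosen after the values had been seen. From 0 to 90 DAS the change was -0.53 and did not pass (adjusted p 0.197 by limma). The change to 30 DAS also missed the threshold by edgeR and in some fits that left out a library. In BTSO the mean of Cs1g02580 was 3.59 FPKM at 60 DAS and 8.09 FPKM at 90 DAS, and in TBO it was 23.5 and 16.7 FPKM. The sum of the 10 photosynthesis genes stood at 36.8 to 43.6 FPKM in BTSO at 60 DAS and at 42.2 to 53.9 FPKM at 90 DAS, and its part in the change was not tested.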

How the results depend on the processing

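Across 87 results, 456 values were recomputed under other settings, and each of 30 libraries was left out in turn. The variety differences of PH4 and AN1 kept direction and call in all of these, between 2.62 and 4.25 for PH4 and between 2.27 and 3.11 for AN1 over the alternatives. Cs1g02580 kept both at 0 to 60 DAS. At 90 DAS its difference was 1.05 with a pseudocount of 0.1, and called, and it ranged from 0.87 to 1.09 with libraries left out. It was not called in 6 of 7 alternatives, with a lowest value of 0.835. PH4 in TBO at 90 against 0 DAS, 0.05 as reported, was -0.059 with upper-quartile scaling and -0.12 with both edgeR and DESeq2, and ranged from -0.071 to 0.18 with libraries left out. The interaction of PH4 from 0 to 15 DAS was -0.23 with a pseudocount of 0.1 and -0.34 with both edgeR and DESeq2 (-0.046 to 0.27 with libraries left out). That of AN1 from 60 to 90 DAS was -0.065 with upper-quartile scaling, -0.081 with edgeR and -0.077 with DESeq2 (-0.13 to 0.24 with libraries left out), and PH4 in BTSO from 60 to 90 DAS was -0.019 with a pseudocount of 0.1 (-0.13 to 0.28). None of these reversals concerned a called value. With libraries left out, the values that changed sign ranged from -0.014 to 0.28 for AN1 in BTSO at 15 DAS, -0.14 to 0.17 for AN1 in BTSO at 30 DAS, -0.15 to 0.043 for Cs1g02580 in BTSO at 15 DAS and -0.19 to 0.12 for the interaction of PH4 from 0 to 60 DAS. The interaction of AN1 from 0 to 90 DAS ranged from 0.35 to 0.72. Calls were gained for PH4 in BTSO at 30 against 0 DAS and Cs1g02580 in BTSO at 90 against 60 DAS. The adjusted p of AN1 in TBO at 90 against 60 DAS was 0.0359 with upper-quartile scaling in limma, 0.0382 by edgeR and 0.0217 by DESeq2, with differences of -0.50 and -0.53 (both tools). The interaction of Cs1g02580 from 0 to 30 DAS missed the threshold in edgeR (1.04, adjusted p 0.0516). Adding 1 to both FPKM values moved the variety differences in the log2 ratios of PH4, since it weighs most on the low PH4 values of BTSO. For PH4 to AN1 they became 0.89, 0.75, -0.043, 0.40 and -0.12 from 0 to 90 DAS. For PH4 to Cs1g02580 they became 1.77, 1.35, 0.56, 0.83 and 1.78. As deviations from the day means, the TBO correlations were 0.61 for PH4 and AN1, 0.51 for AN1 and Cs1g02580 and -0.019 for PH4 and Cs1g02580, and none passed.

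Counts of called genes were higher with a smaller pseudocount and with the count tools. At 0 DAS 1293 genes were called between the varieties, against 2322 with a pseudocount of 0.1, 2446 by edgeR and 2524 by DESeq2. At the other days the same settings gave 2579, 2520 and 2586 genes in place of 1471 at 15 DAS, 2891, 2910 and 2961 in place of 1781 at 30 DAS, 2835, 2911 and 2923 in place of 1879 at 60 DAS, and 2675, 2643 and 2660 in place of 1790 at 90 DAS. Upper-quartile scaling moved the median of all genes by -0.16 at 15 DAS and -0.12 at 90 DAS. It turned the split of higher against lower calls from 639 and 654 to 495 and 845 at the start, from 855 and 616 to 544 and 876 after 15 days and from 980 and 810 to 748 and 988 after 90 days.

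Libraries with the same replicate number did not deviate together (r from -0.07 to 0.18 over 15 pairs, 2 of them over 0.1), so the numbers were not taken to pair samples. With the replicate number as a block the differences at 0 DAS stayed at 3.27 for PH4, 2.38 for AN1 and 1.50 for Cs1g02580, and no call of the 3 genes changed. The adjusted p of PH4 in BTSO at 90 against 0 DAS, 0.0435 as reported by limma, was 0.0530 with the block within the variety, those of Cs1g02580 in TBO at 30 against 0 DAS and 90 against 60 DAS were 0.0475 and 0.0433, and the estimates were the same. The low FPKM of PH4 in BTSO limits the precision of its fold changes and ratios.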

Other observations

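The levels of the MYB114-like gene Cs6g17570 and of AN1 late in TBO storage are set side by side here. Cs6g17570 stood at 17.7 FPKM ± 11.6 (SD, n = 3) at 60 DAS and 16.6 FPKM ± 1.97 at 90 DAS, 1.91 above 0 DAS on the log2(FPKM + 1) scale at 90 DAS (adjusted p 5.62e-05 by limma with Benjamini-Hochberg adjustment). At 60 DAS the libraries of Cs6g17570 ran from 4.45 to 26.1 FPKM. AN1 was at 159 FPKM ± 9.98 at 60 DAS and 117 FPKM ± 9.42 at 90 DAS, 0.35 above 0 DAS at 90 DAS. Its change from 60 to 90 DAS did not pass (adjusted p 0.0631 by limma). The difference between the 2 genes was not tested.

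The row of PH4 carries pathway labels for oxidative phosphorylation and for porphyrin and chlorophyll metabolism, beside a description as a MYB transcription factor and ontology terms for DNA binding. Which sequence received these pathway labels is not given in the sources used here.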
